A study of Mus musculus with 13 samples.

Results

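Zmynd17 is the name on the array for the gene now called Mss51, a muscle gene on mouse chromosome 14. It was described here together with a noncoding region of the same chromosome that the array design names by its position, chr14:21029450-21049451 (mm9). The members were all non-control probes with the gene name Zmynd17 or a name that starts with those coordinates, which gave 3 gene names of 17257 genes tested and 11 probes of 55681. Zmynd17 had 1 probe, the forward strand of the region had 5 and its reverse strand had 5. Of the 11 probes, 7 were well above background in the sample channel on at least 6 of 13 arrays and were kept: the Zmynd17 probe, all 5 forward probes and 1 reverse probe. The members were chosen by their log2 ratios in transgenic against wild-type mice and by how these varied over the 13 arrays. Their values in that contrast are therefore given as a description, without a test. The p-values of the correlations between Zmynd17 and the region come from the same arrays and are descriptive too.

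The data are 13 arrays of RNA from the gastrocnemius, a calf muscle, of adult male C57BL/6J mice, 1 mouse per array, comprising 7 mice that carried a UCP1 transgene and 6 wild-type littermates. UCP1, the uncoupling protein of brown fat mitochondria, was overexpressed in the skeletal muscle of the transgenic mice, per the study's title, and no source used here names the promoter of the transgene. The littermates entered the comparison at an age of 12 weeks and all received a purified low fat diet for 12 weeks. The muscle RNA of each mouse was labelled with Cy5 and hybridised against 1 common Cy3-labelled reference pool, so each level below is a log2 ratio of the mouse over the pool, and each difference is UCP1 transgenic minus wild type.

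Mss51 encodes a protein with a MYND zinc finger. Its yeast counterpart activates the translation of the COX1 subunit of cytochrome c oxidase and takes part in the assembly of that enzyme. In mice the gene is expressed mainly in skeletal muscle, its product lies at mitochondria, and its transcript is known as a target of myostatin and TGF-beta1 signalling; mice that lack it have been described with a higher oxidative metabolism in muscle. No function is given here for the noncoding region, which the array design lists as a long intergenic noncoding RNA candidate on both strands.

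The Zmynd17 probe lies on the reverse strand at chr14:21302415-21302782 (mm9). Its 60 bases span 368 bases of the genome, so that it crosses at least 1 exon junction. The probes of the noncoding region lie 262 to 273 kb to the left of it, between the nearest probes of Kcnk5, 69.7 kb to its left, and Kcnk16, 32.5 kb to its right. The 5 forward probes are numbered from left to right, and the gaps between them are 3771, 51, 0 and 0 bases, so that probes 3 to 5 tile 180 bases without a break, chr14:21040435-21040614. The sequences below are shown because the finding rests on these few oligonucleotides: the start of the only Zmynd17 probe, the forward probes that were high in the transgenic mice, and a reverse probe that is the exact reverse complement of forward probe 1 and reads the opposite strand of the same 60 bases, chr14:21036493-21036552. They are as the scanner files give them, 5′ to 3′, with no part marked by capitals.
Zmynd17, first 30 bases: actgtttacagccaacaggaactggaagcc
forward probe 1: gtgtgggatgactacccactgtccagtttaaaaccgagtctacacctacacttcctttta
forward probe 2: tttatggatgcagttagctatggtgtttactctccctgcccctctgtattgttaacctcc
forward probe 3: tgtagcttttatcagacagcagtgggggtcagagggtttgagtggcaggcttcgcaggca
forward probe 4: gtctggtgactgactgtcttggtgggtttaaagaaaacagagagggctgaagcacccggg
forward probe 5: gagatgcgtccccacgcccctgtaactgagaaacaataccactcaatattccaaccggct
reverse probe 5: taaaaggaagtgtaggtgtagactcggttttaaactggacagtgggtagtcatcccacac

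Between 20643 and 24036 of the 55681 probes were well above background per array, and the number of arrays limits the precision of every value. Between the groups, 5695 of 17257 genes (33%) passed the threshold of 0.05 on the adjusted p of limma, 16.9% higher and 16.1% lower in transgenic mice. Ucp1, the transgene's product, lay between -0.20 and 0.85 in the 7 transgenic mice. In 5 wild-type mice it lay between -4.23 and -2.82, but on the array labelled wild type 4 it was 0.45, within the transgenic range. The difference in Ucp1 was 3.23 ± 0.50 with this array (SE, limma adjusted p = 5.5e-05) and 3.91 without it (limma adjusted p = 2.6e-11). Without it, 5630 genes were called, 2889 higher and 2741 lower. The differences of Zmynd17 and of the mean of the forward probes, the counts of genes called and the correlations among wild-type mice are therefore given with and without it. White adipocyte markers also moved with the groups: of 8 listed and 7 tested, 6 rose and 1 fell in transgenic mice, and their mean log2 ratio ranged from -0.33 to 0.26 in transgenic and from -0.58 to 0.07 in wild-type mice, with the highest wild-type value on the array labelled wild type 4. Their summed Cy5 signal ranged from 33934 to 68492 in transgenic and from 26030 to 70911 in wild-type mice. Of 8 skeletal myofibre markers, 4 fell and 4 did not pass the threshold, and their mean ratio lay between -0.24 and -0.01 in transgenic mice and between 0.17 and 0.53 in wild-type mice. Their summed Cy5 signal overlapped, from 567231 to 1137675 in transgenic and from 593401 to 1172776 in wild-type mice. Several of these markers are also in the fast-fibre list below, whose falls depended on the scaling. Of the markers of endothelial, fibroblast, leukocyte, satellite, Schwann and smooth muscle cells, 0% to 40% were called per list, against 33% of all genes. The part of all these markers in the results below was not tested. In whole muscle, fewer cells of a type and less RNA per cell cannot be told apart.

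Zmynd17 was far lower in the transgenic muscles. Its log2 ratio was -2.93, -2.96, -3.08, -2.98, -3.19, -2.72 and -2.74 in transgenic mice 1 to 7, and -0.33, 0.53, 0.57, 0.65, 0.38 and 0.24 in wild-type mice 1 to 6. Every transgenic mouse lay below every wild-type mouse by a wide margin, and the lowest wild-type value was that of mouse 1. The mean was -2.94 ± 0.17 in transgenic mice and 0.34 ± 0.36 in wild-type mice (SD, n = 7 and 6), a difference of -3.29 (SE 0.13), or 9.75-fold lower in transgenic mice. Of the 17257 genes, 4 were this much lower or lower still, Zmynd17 included.

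The array labelled wild type 4 had the highest Zmynd17 value of all, although its Ucp1 and its adipocyte markers read like those of transgenic mice. The difference was -3.22 without that array and -3.42 without wild-type mouse 1. The arrays lay on 4 slides, each with both groups, and within slides 1 to 4 the difference was -2.62, -3.63, -3.73 and -3.04. So the direction was the same on each slide, and the smallest gap was on slide 1, which holds wild-type mouse 1.

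The contrast was also seen in the uncorrected signal of the individual mice. In Cy5, the channel of the individual mouse, the Zmynd17 spot read 290, 266, 377, 462, 383, 366 and 482 units in transgenic mice 1 to 7, and 1603, 3733, 4840, 5354, 3414 and 2380 units in wild-type mice 1 to 6, over a local background of 29 to 37 units. The Cy3 signal of the shared pool stayed between 3087 and 4481 units on all 13 arrays. The transcript was thus well above background in every mouse of both groups, and the spots were dimmer in the transgenic channel while the pool read alike. In the value table deposited by the authors, log2 levels ranged from 8.24 to 8.76 in transgenic mice and from 11.20 to 12.16 in wild-type mice, a difference of -3.33.

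The forward strand of the noncoding region read the other way. Forward probe 5, the brightest, had log2 ratios of 0.37, 0.77, 0.59, 0.90, 0.94, 1.29 and 0.84 in transgenic mice 1 to 7, against -1.69, -1.53, -1.77, -1.69, -1.74 and -1.88 in wild-type mice 1 to 6. All transgenic mice lay above all wild-type mice, and the wild-type values were close together. The difference was 2.53 (SE 0.11), or 5.77-fold higher in transgenic mice. Its Cy5 signal was 852, 1130, 1583, 2329, 2338, 2197 and 2058 units in transgenic mice, against 141, 234, 267, 268, 211 and 145 units in wild-type mice, so it could be measured in both groups.

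The contrast was largest on forward probe 4, which adjoins forward probe 5. It read 0.23, 0.94, 0.41, 0.86, 0.94, 1.21 and 0.90 in transgenic mice 1 to 7 and -2.27, -2.39, -2.85, -2.81, -2.37 and -2.57 in wild-type mice 1 to 6. The groups did not overlap, and transgenic mice 1 and 3 were the lowest of their group. The difference was 3.33 (SE 0.14), with Cy5 signals of 707 to 2157 units in transgenic and 72 to 117 units in wild-type mice. Forward probe 3 completes the tiled stretch and behaved alike, at 0.69 ± 0.32 in transgenic and -2.11 ± 0.20 in wild-type mice (SD, n = 7 and 6), a difference of 2.80 (SE 0.13).

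Upstream on the same strand the contrast was smaller on forward probe 2, while that of forward probe 1 could not be ranked against the other probes. Forward probe 2, separated from the tiled stretch by 51 bases, averaged 0.54 ± 0.32 in transgenic and -0.58 ± 0.14 in wild-type mice (SD, n = 7 and 6), a difference of 1.13 (SE 0.12), or 2.18-fold higher. Its Cy5 signal of 185 to 306 units in wild-type mice was above that of forward probes 3 and 4 in the same mice, but the levels of different probes are not comparable. Forward probe 1, a further 3771 bases to the left, was well above background on 7 of 7 transgenic and 0 of 6 wild-type arrays. It averaged 0.46 ± 0.26 in transgenic and -0.52 ± 0.17 in wild-type mice. Its ratio difference was 0.98 (SE 0.11), but in wild-type mice its signal, at 37.8 to 47.8 units over a local background of 28 to 35 units, sets only an upper limit to the level, and no fold is given.

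The groups did not overlap on any of the 5 forward probes, as was the case for 14.2% of the 22716 kept probes. The mean over the 5 probes was 0.66 ± 0.29 in transgenic and -1.49 ± 0.13 in wild-type mice (SD, n = 7 and 6), a difference of 2.15 on the log2 scale, which includes forward probe 1, not well above background in wild-type mice. Over the other 4 probes the difference was 2.45. Over all 5 it was 2.12 without the array labelled wild type 4 and 2.22 without transgenic mouse 1, the lowest of its group. Within slides 1 to 4 it was 1.74, 1.82, 2.42 and 2.45. With the lower normexp offset of 16 it was 2.48, and from the log ratio of Agilent's software 3.24, in which the difference of forward probe 1 alone was 3.60 on the log2 scale. Among the 1884 noncoding names tested, the forward strand of this region had the largest increase at 2.53, and the next were 0.89 and 0.79. Of these names 22.3% were called and 6.26% were called higher, figures that include the region itself. Over all genes, 16 were this much higher or higher still, itself included.

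Within the transgenic group, the forward probes were positively correlated with each other over the mice. Over the 10 pairs of forward probes the correlation across the 7 transgenic mice had a median of 0.83 and ranged from 0.73 to 0.94. Across the 6 wild-type mice it had a median of 0.45 and ranged from -0.04 to 0.76. The probes of a pair share a strand, an array, a slide and the reference pool, and most of the wild-type signals were low. In transgenic mice the mean of the forward probes was 0.43, 0.33, 0.77 and 0.94 on slides 1 to 4. The part of the slide in these correlations was not tested.

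The reverse strand of the region gave no comparable contrast. The differences of reverse probes 1 to 5 were 0.01, 0.16, 0.06, -0.06 and -0.07, and on each of them the groups overlapped. Reverse probe 4, chr14:21036245-21036304, was the only one kept, with 6 of 7 transgenic and 5 of 6 wild-type arrays well above background and Cy5 signals of 47.3 to 74.4 units in transgenic and 50.6 to 79.6 units in wild-type mice. Reverse probe 2 was well above background on 4 transgenic arrays and 1 wild-type array, and the other 3 on none, so their near-zero differences carry no level. Reverse probe 5, the mirror of forward probe 1 printed above, read 28.6 to 39.8 units in transgenic and 28.5 to 40.1 units in wild-type mice, at the level of its local background. No other probe of the array lay within the region.

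**Figure D1:**
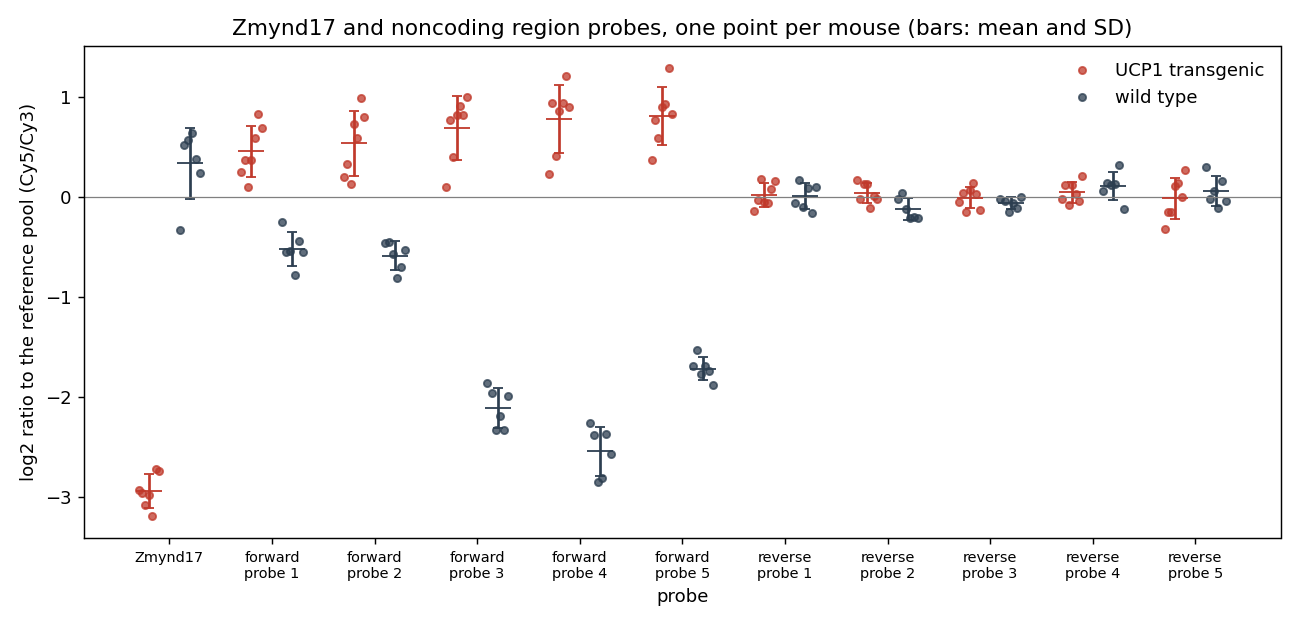
Log2 ratio of each mouse to the reference pool (vertical axis) for the 11 probes (horizontal axis), with 7 UCP1 transgenic mice to the left of 6 wild-type mice and bars for the mean and SD. Zmynd17 is lower in all transgenic mice, with means of -2.94 against 0.34, the 5 forward probes are higher in all of them, and the 5 reverse probes overlap.

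The relation of Zmynd17 and the region was computed over the mice of each group, since the groups form separate clusters. The members were chosen in part by how their ratios varied over these same arrays. The p-values of this relation are therefore descriptive, not an independent test, and no conclusion is drawn from them. Across the 7 transgenic mice, Zmynd17 and the mean of the 6 kept probes of the region had a Pearson r of 0.44 (exact permutation p = 0.322, adjusted over 4 relations 0.489) and a Spearman rho of 0.39 (exact permutation p = 0.396, adjusted 0.713). Without the 2 mice farthest from the median, r was 0.61 over 5 mice. Across the 6 wild-type mice r was -0.69 (exact permutation p = 0.103, adjusted 0.411) and rho was -0.77 (exact permutation p = 0.103, adjusted 0.411), and r was -0.61 over the 4 mice left. In wild-type mice this mean includes forward probe 1, not well above background there, and the dim reverse probe 4.

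The sign of each relation depended on the processing, and r alone is given for the alternatives. Taken as deviations from the slide mean, r was -0.0104 in transgenic and -0.40 in wild-type mice. Among the wild-type mice, leaving out 1 mouse at a time gave r between -0.94 and -0.29. Without the array labelled wild type 4, r was -0.60. With median centring in place of loess, r was 0.88 in transgenic and 0.66 in wild-type mice, so that both were positive.

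**Figure D2:**
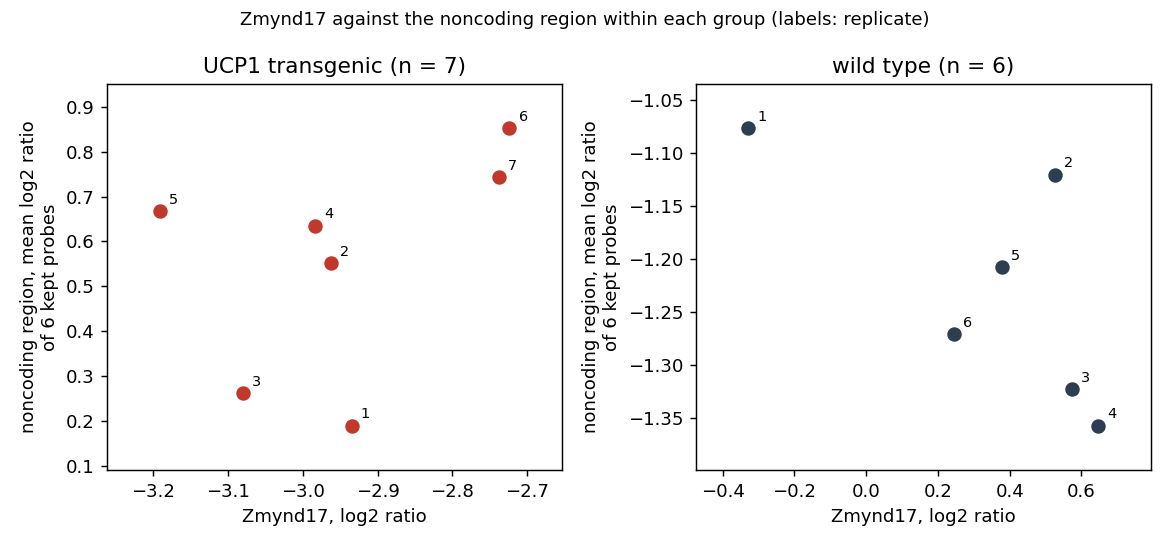
Zmynd17 (horizontal axis, log2 ratio) against the mean log2 ratio of the 6 kept probes of the noncoding region (vertical axis), 1 point per mouse labelled with its replicate number, with the 7 UCP1 transgenic mice on the left and the 6 wild-type mice on the right. Pearson r was 0.44 in transgenic and -0.69 in wild-type mice, and the vertical axes of the panels differ.

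Mstn, the gene of myostatin, was set against Zmynd17 in the same way because Mss51 is known as a target of myostatin. Across the 7 transgenic mice r was -0.26 (exact permutation p = 0.563, adjusted 0.563) and rho was -0.18 (exact permutation p = 0.713, adjusted 0.713). Without the 2 mice farthest from the median, r was -0.07. Across the 6 wild-type mice r was -0.48 (exact permutation p = 0.367, adjusted 0.489) and rho was -0.26 (exact permutation p = 0.658, adjusted 0.713), with r = -0.69 over the 4 mice left and -0.43 without the array labelled wild type 4. Neither relation passed the threshold. Their signs turned with the processing: r in transgenic mice was 0.71 with Agilent's own log ratio, 0.69 with median centring and 0.16 with Cy5 alone, and r in wild-type mice was 0.49 with median centring.

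The genes whose values were most like those of Zmynd17 were sought among 17133 genes with a value on every array, as a description. Over the 13 arrays, where the difference between the groups dominates, the highest correlations were 0.989 for a noncoding name at chr1:186560855-186563399 on the forward strand, 0.986 for Me1, the cytosolic malic enzyme, 0.985 for Kcnab1, a beta subunit of voltage-gated potassium channels, 0.985 for Taf13, a subunit of the general transcription factor TFIID, and 0.984 for a noncoding name at chr3:146515333-146557069 on the forward strand. Their differences were -1.11, -0.97, -1.59, -0.65 and -1.41 on the log2 scale. The forward strand of the chromosome 14 region stood at -0.970 on this measure. After the group means were removed, it stood at 0.195, and the genes most like Zmynd17 were Ramp2, a partner protein of the calcitonin receptor family (0.907), Lama4, a laminin chain of vessel basement membranes (0.902), Nmt2, an N-myristoyltransferase (0.899), a noncoding name at chr17:22422837-22451777 on the reverse strand (0.878), and Lxn, the carboxypeptidase inhibitor latexin (0.864). None of these 5 passed the threshold between the groups. They are the highest of 17133 correlations over 13 arrays, and how high such a search reaches by chance was not tested.

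The genes around the locus were compared next, within 500 kb of the Zmynd17 probe and without the members. Of 28 tested, 6 were higher and 7 lower in transgenic mice and 15 did not pass the threshold, so that 46.4% were called where 33% were over all genes. Their median difference was -0.05 against -0.0010 over all genes, and they ranged from -0.52 to 0.84. In 7 of the 28 the groups did not overlap, against 14.7% of all genes. Without the array labelled wild type 4, 6 were higher and 8 lower. With median centring in place of loess, 2 were higher and 0 lower, and the median was 0.11 where that of all genes was 0.14.

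Of the immediate neighbours of Zmynd17, 1 was lower and 1 did not pass the threshold. Anxa7, a calcium-dependent membrane-binding annexin with its probe 26.9 kb to the left, averaged 0.01 ± 0.15 in transgenic and 0.21 ± 0.20 in wild-type mice and did not pass the threshold at -0.20 (limma adjusted p = 0.096). Ppp3cb, a catalytic subunit of the phosphatase calcineurin with its probe 16.5 kb to the right, averaged -0.14 ± 0.14 in transgenic and 0.26 ± 0.23 in wild-type mice and fell by 0.40 (limma adjusted p = 0.0026). Further to the right, Myoz1, a Z-disc protein that binds calcineurin, fell by 0.32, and Camk2g, a calcium and calmodulin-dependent kinase, fell by 0.36. With median centring, Anxa7 and Myoz1 had the opposite sign, at 0.03 and 0.0559.

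Kcnk5, a two-pore potassium channel and the nearest named gene to the left of the noncoding region, rose. It averaged 0.26 ± 0.37 in transgenic and -0.58 ± 0.10 in wild-type mice, a difference of 0.84. It was well above background on 7 of 7 transgenic and 0 of 6 wild-type arrays, so it passed the filter only through the transgenic mice. Its wild-type signal sets only an upper limit, which put it at least 1.75-fold higher, and no p is given. Kcnk5 is among the 6 genes counted as higher and the 7 without overlap. Kcnk16, the channel gene on the other side of the region, was well above background on 0 arrays. The noncoding name chr14:20893694-20903726 rose by 0.52 on its reverse strand and stood at -0.08 on its forward strand, not past the threshold.

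Between the region and Zmynd17, Nudt13, a mitochondrial hydrolase of the Nudix family, rose by 0.30, and Dnajc9, a histone-binding cochaperone, rose by 0.21. Fam149b fell by 0.47 on its brightest probe, while its other 3 kept probes stood at -0.22, -0.03 and -0.03. Mrps16, a protein of the mitochondrial ribosome, fell by 0.29, although with median centring Mrps16 stood at 0.0010. Ecd stood at 0.04 and Ttc18, now Cfap70, at -0.20, and neither passed the threshold. To the right, Sec24c, a subunit of the COPII vesicle coat, rose by 0.30 and Usp54 by 0.29. Usp54 was dim, well above background on 7 transgenic and 3 wild-type arrays. The overlapping noncoding names chr14:21460230-21461364 and chr14:21437920-21464655, both on the forward strand, fell by 0.52 and 0.46. The rest, which were 1810062O18Rik, Synpo2l, 4733401D01Rik, 6230400D17Rik, Fut11, Chchd1, 2310021P13Rik, Ndst2, Plau, the transcript ENSMUST00000077016 and the reverse strand of chr14:21621875-21638625, ranged from -0.15 to 0.11 and did not pass the threshold.

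**Figure D3:**
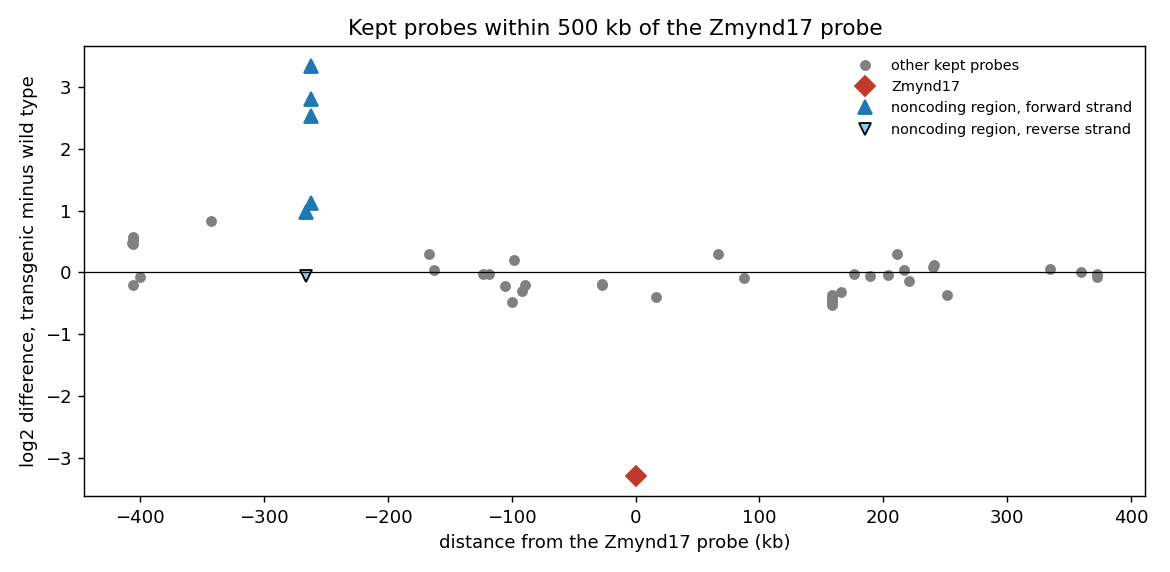
Difference in log2 ratio, UCP1 transgenic minus wild type (vertical axis), of kept probes against their distance in kb from the Zmynd17 probe (horizontal axis). Zmynd17 is at -3.29 and the forward probes of the noncoding region are at 0.98 to 3.33, members that were chosen by this contrast. Forward probe 1 (0.98) and Kcnk5 (0.84) were not well above background in wild-type mice, so these 2 cannot be ranked.

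In the pathway that is known to act on Mss51, more genes fell than rose, but their number depended on the scaling. Of 31 genes of myostatin and TGF-beta signalling tested, 2 rose, 11 fell and 18 did not pass the threshold (41.9% called against 33% of all genes), with a median of -0.07 that turned to 0.07 with median centring, where 0 were higher and 1 lower. Without the array labelled wild type 4, 1 was higher and 10 lower. Among the ligands, Mstn averaged -0.19 ± 0.17 in transgenic and 0.26 ± 0.26 in wild-type mice and fell by 0.46 (limma adjusted p = 0.0020), while Tgfb1 stood at -0.02 (adjusted p = 0.86). Acvr2a, an activin type II receptor that binds myostatin, fell by 0.51 (limma adjusted p = 0.00011). Smad3, a transcription factor of this pathway, averaged -0.80 ± 0.17 in transgenic and 0.50 ± 0.16 in wild-type mice and fell by 1.30 (limma adjusted p = 7.9e-10). Smurf2, a ubiquitin ligase that acts on Smads and their receptors, fell by 0.24 (limma adjusted p = 0.0035). With median centring the 1 gene still called was Smad3, so Mstn, Acvr2a and Smurf2 did not pass the threshold there.

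Cytochrome c oxidase, the enzyme whose core subunit the yeast counterpart of Mss51 serves, showed mixed changes. Of 22 genes for its assembly and expression, 3 rose and 3 fell (27.3% called against 33%), with a median of 0.04. With Agilent's own log ratio 6 rose and 4 fell, and with median centring 1 rose and 0 fell. Sco2, a copper chaperone of the enzyme, rose by 0.48 (limma adjusted p = 4.6e-05) and Cox15, which makes its heme A, by 0.27. Higd1a, a small protein of the inner membrane, fell by 0.34 and Coa6, named 1810063B05Rik on the array, by 0.27. Cox10, which acts before Cox15 in heme A synthesis, stood at 0.10 and did not pass the threshold (limma adjusted p = 0.45).

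Of 16 subunits of the enzyme encoded in the nucleus, 3 rose and 4 fell (43.8% called), with a median of -0.12 that was 0.23 with median centring and 0.0063 in the value table deposited by the authors. Cox6a2, the muscle form of subunit VIa, averaged 0.39 ± 0.15 in transgenic and -0.58 ± 0.09 in wild-type mice and rose by 0.97 (limma adjusted p = 6.2e-09). The muscle forms Cox7a1 and Cox8b fell by 0.62 and 0.61. With median centring 1 subunit rose and 0 fell, and Cox7a1 and Cox8b, at -0.25 and -0.24, did not pass the threshold. Cox6c fell by 0.40, and stood at 0.0185 with median centring. Without the array labelled wild type 4, 4 assembly genes were higher and 2 lower, and 4 subunits were higher and 4 lower.

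Genes of fibre type were described because Mss51 is a transcript of skeletal muscle fibres. Of 12 slow-fibre genes, 11 rose and 1 fell (100% called against 33%), with a median of 0.83. Myh7, the slow myosin heavy chain, averaged 0.18 ± 0.32 in transgenic and -0.99 ± 0.40 in wild-type mice and rose by 1.17 (limma adjusted p = 1.3e-05), Tnni1, the slow troponin I, by 1.09, Tpm3, the slow tropomyosin, by 1.04, and Myh7b by 0.96. The 1 gene that fell was Mb, the oxygen store myoglobin, at -0.54. The count was the same without the array labelled wild type 4. With median centring 11 rose and 0 fell.

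Of 19 fast-fibre genes, 1 rose, 15 fell and 3 did not pass the threshold (84.2% called), with a median of -0.61. Mylk2, the kinase of the myosin light chain, fell, with -0.66 ± 0.18 in transgenic and 0.44 ± 0.26 in wild-type mice (SD, n = 7 and 6, limma adjusted p = 1.4e-07). Myl1, a fast myosin light chain, fell by 1.01, the calcium buffer parvalbumin (Pvalb) by 0.91, Casq1, the fast calsequestrin, by 0.90, and Myh4, the IIb myosin heavy chain, by 0.74. Myh1, the IIx myosin heavy chain, rose by 0.62. Without the array labelled wild type 4, 1 fast-fibre gene rose and 15 fell. This list depended on the scaling: with the Cy5 channel alone 7 fell and the median was -0.12, and with median centring 1 fell and the median was -0.19, where that of all genes was 0.14. This list and the myofibre markers share Myh4, Mylpf, Tnnt3, Pvalb and Atp2a1.

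**Figure D4:**
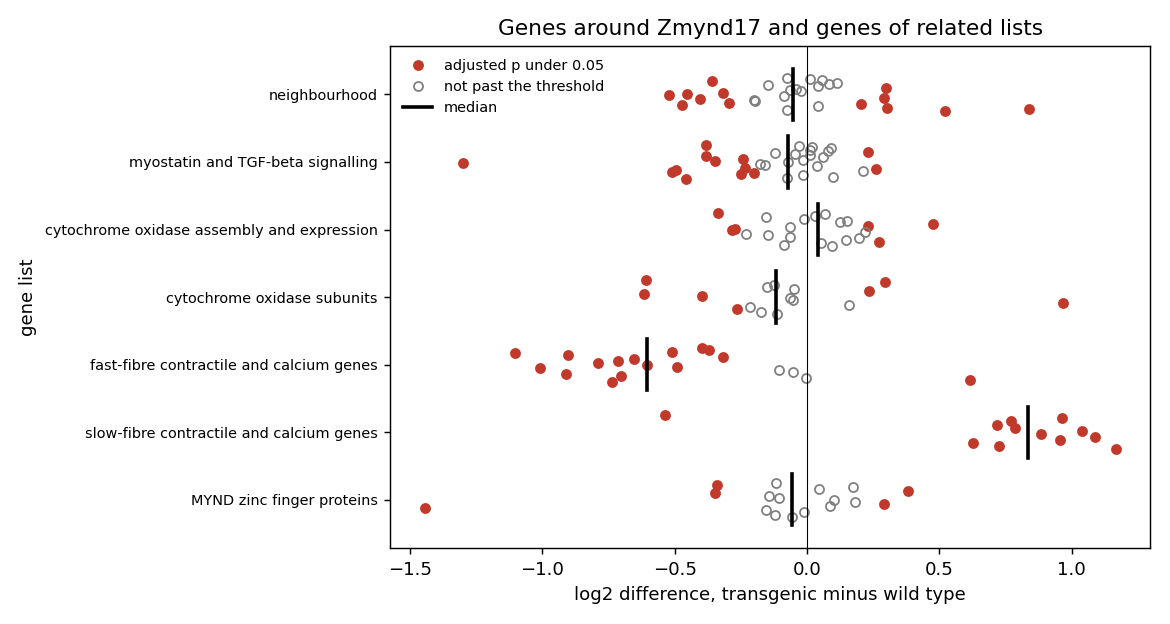
Difference in log2 ratio, UCP1 transgenic minus wild type (horizontal axis), of each tested gene (points, filled where the limma adjusted p was under 0.05) in the neighbourhood of Zmynd17 and in 6 gene lists (vertical axis), with the median of each as a bar. The medians lie between -0.12 and 0.04 except for the fast-fibre list at -0.61 and the slow-fibre list at 0.83, and Zmynd17, at -3.29, would lie far to the left of the plotted range.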

How the data were processed

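Per the labels' protocols, 200 ng of muscle RNA of each mouse was labelled, individual samples in Cy5 and the equimolar pool in Cy3, with no dye swap. The deposited scanner files hold spot and background intensity on a linear scale and a log10 ratio, per the file headers, from Agilent Feature Extraction 10.5.1.1, also named in the submitters' processing notes. The value table deposited by the authors holds log2 values whose background correction and normalization no source used here gives. Its columns shared a median of 7.58 and followed the Cy5 signal, so a higher value was taken as a higher level. It served as an alternative.

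Signals were corrected by normexp with an offset of 50 and log2 ratios normalized by loess within arrays (limma 3.58.1, R 4.3.3), without control and outlier spots. Probes were kept if well above background in the Cy5 channel of at least 6 of 13 arrays (22716 of 55681), the brightest per gene name standing for the gene (17257). Groups were compared with lmFit and eBayes, two-sided, with Benjamini-Hochberg adjustment over all genes. Each array is 1 mouse per the labels. Coordinates are mm9, per the file headers, and current names come from a RefSeq table of GRCm38.p6. On simulated data, 100% of 200 genes changed by 1 on the log2 scale were recovered, with 9 other calls among 17134 genes. Smaller changes, like many of those given above, were not simulated. The members and gene lists were chosen with earlier results of these data known. Named genes were all members, all genes tested within 500 kb, up to 4 per list with the largest difference among those called without overlap between the groups, Mstn, Tgfb1, Cox10, Myh4 and Ucp1, and the 5 genes most like Zmynd17 by each measure. Myh1 and Mb were named after their values were seen.

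Same-numbered mice of the groups did not deviate together (correlations of -0.23 to 0.23), so the numbers were not taken as pairs.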

Additional observations from a re-analysis of the deposited data

Results flagged for a closer look

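The Ucp1 log2 ratio of the array labelled wild type 4 was 0.45, far from the next wild-type value of -2.82. The gap was 0.70 of the range of the 6 wild-type arrays, past Dixon's critical value at 95%. It was the only sample singled out among 28 groups of values tested, and chance singles out about 1 in 20 groups. On the same array Zmynd17 stood at 0.65 and the mean of the forward probes at -1.65, at the wild-type extreme of both.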

How the results depend on the processing

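Zmynd17 kept its direction under all 25 alternatives, from -3.46 to -3.03, and the mean of the forward probes under its alternatives, from 2.09 to 3.24. That mean was 3.24 with Agilent's own log ratio, 2.48 with an offset of 16, 2.42 in the value table deposited by the authors, and 2.45 with probes well above background on all 13 arrays, which drops forward probe 1. With median centring without loess, the median of all genes was 0.14 and 1303 genes were called (1039 higher and 264 lower, against 2910 and 2785). In the neighbourhood 2 were called, and in the lists 18 (against 59). At that setting r of Zmynd17 and the region was 0.88 in transgenic and 0.66 in wild-type mice. For Zmynd17 and Mstn r was 0.69 and 0.49. Mrps16 (0.0010), Myoz1 (0.0559) and Cox6c (0.0185) changed sign. The cause of these shifts was not tested. Leaving out 1 mouse at a time gave -3.42 to -3.22 for Zmynd17, 2.09 to 2.22 for the forward probes, 5138 to 5708 genes called, 12 to 15 in the neighbourhood and 54 to 62 in the lists. The Mstn correlation in transgenic mice was also positive with Agilent's own log ratio (0.71) and Cy5 alone (0.16). As deviations from the slide mean, r of Zmynd17 and the region was -0.0104 in transgenic and -0.40 in wild-type mice. The p-values of this relation are descriptive, since the members were chosen in part by how they varied over these arrays. For the correlations, leaving out 1 mouse gave 0.19 to 0.75 (region, transgenic), -0.94 to -0.29 (region, wild type), -0.43 to 0.13 (Mstn, transgenic) and -0.73 to -0.25 (Mstn, wild type). With the forward probes only, chosen after seeing the data, r was 0.43 in transgenic and -0.75 in wild-type mice. With the replicate number as a block, Zmynd17 was at -3.32, the forward probes at 2.12, and 5369 genes, 13 neighbours and 58 list genes were called, and no sample correlated best with its own number; no replicate block was fitted to the correlations, where each number occurs once per group. Of 1594 values for 64 single genes, 1511 kept direction and call, 32 lost and 22 gained the call, 3 called values changed sign, and 26 changed sign without passing the threshold in either setting (sign changes in 16 genes in all). Dim probes set the depth limit: forward probe 1 in wild-type mice and 4 reverse probes lay at or near background.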

Other observations

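Other proteins with a MYND zinc finger, the fold that Mss51 carries, were counted in the same way. Of 17 tested, 2 rose, 3 fell and 12 did not pass the threshold (29.4% called against 33% of all genes), with a median of -0.06 that was 0.11 with median centring. With the mean over the probes of each gene, 2 rose and 6 fell, and with median centring 1 rose and 1 fell. Without the array labelled wild type 4, 3 rose and 3 fell. Smyd2, a lysine methyltransferase, averaged -0.78 ± 0.14 in transgenic and 0.66 ± 0.14 in wild-type mice (SD, n = 7 and 6) and fell by 1.44 (limma adjusted p = 3.7e-11). Cbfa2t2, a transcriptional corepressor, fell by 0.35 (limma adjusted p = 0.00074).

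Among the noncoding names, 420 of 1884 were called (22.3%), 6.26% higher and 16% lower in transgenic mice. The largest decreases were -1.99 at chr10:69679644-69682458, -1.99 at chr10:69669025-69686275, which overlaps it, and -1.89 at chr3:146645022-146646977, all on the forward strand.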
